A study of Mus musculus with 15 samples.

Results

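The comparison described here sets macrophages treated with IL-4 together with IL-6 against macrophages treated with IL-13 together with IL-6. Of the 15 RNAseq libraries of the series, it uses the 6 that held both a type 2 cytokine and IL-6, namely the 3 libraries of IL-4 and IL-6 (IL-4/IL-6) and the 3 libraries of IL-6 and IL-13 (IL-13/IL-6). The cells were BMDMs (bone marrow-derived macrophages), grown in culture from mononuclear cells of mouse marrow. In the study's general methods the marrow came from mice homozygous for a YFP reporter allele, aged 8 to 12 weeks, and was cultured for 7 days in DMEM with 10% FBS and M-CSF at 20 ng/ml. For the RNAseq cells themselves the genotype is not restated. The dose of IL-4 was 10 ng/ml, that of IL-13 and of IL-6 was 40 ng/ml each, and treatment lasted 24 h. Since the dose of IL-4 differed from that of IL-13, the kind of cytokine and its dose cannot be told apart. The other 9 libraries are an untreated control, IL-4 without IL-6 and IL-13 without IL-6, with 3 libraries each, and IL-6 without a type 2 cytokine was not among the libraries analysed here. The samples are labelled as replicates, and the study calls those with IL-4, with or without IL-6, biological replicates, with nothing on whether they came from separate mice, so the p-values measure the spread between these samples.

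IL-4 and IL-13 are type 2 cytokines that drive the alternative (M2) state of macrophages. IL-4 signals through a type I receptor, made of *Il4ra* and the common gamma chain *Il2rg*, and through a type II receptor, made of *Il4ra* and *Il13ra1*, while IL-13 uses the type II receptor, and both activate STAT6. IL-6 binds IL-6Rα and gp130, encoded by *Il6ra* and *Il6st*, and activates STAT3 and the SHP2-ERK branch. The question of the comparison is which transcripts differ between IL-4 and IL-13 when IL-6 is present, in either direction, over all expressed genes.

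Counts summed to between 17755711 and 18918686 per library. Expression is given below as normalized CPM, which are the deposited counts divided by the library total after TMM scaling. The coefficient of variation between replicates was 14.4% in IL-4/IL-6 and 7.32% in IL-13/IL-6. IL-4/IL-6 replicate 2 stood apart from replicates 1 and 3. On the first principal component, with 62.6% of the variance, the IL-4/IL-6 libraries lay between -40.3 and -21.8 and the IL-13/IL-6 libraries between 28.4 and 32.0, so the groups did not overlap, while on the second, with 16.9%, IL-4/IL-6 replicate 2 lay at -26.7 and replicate 3 at 25.1. Protein-coding genes above a minimum level were ordered by length, taken as the annotated span in the genome with introns included. In replicate 2 the shortest sixth of them was 0.24 higher (median log2) and the longest sixth 0.26 lower than the mean of the 6 libraries. Genes of ribosomal proteins held 5.70% of its normalized counts, against 4.47% and 3.93% in replicates 1 and 3 and 3.39% to 3.85% in IL-13/IL-6. A fit with the trend of each library over this span as an offset (the length trend) is among the alternatives. *Socs3*, a feedback gene induced by IL-6 through STAT3, was at 143, 119 and 124 CPM in IL-4/IL-6 and 106, 108 and 111 CPM in IL-13/IL-6, and at 1.72 ± 0.501 (SD, n = 3) in IL-4 and 1.28 ± 0.357 in IL-13, so all 6 libraries carried the transcript that marks an IL-6 response. All 18 genes of a macrophage identity list were detected in the 6 libraries.

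After removal of genes with low counts, 12574 genes were tested in edgeR (quasi-likelihood, p-values adjusted after Benjamini and Hochberg over all of them), and a gene was called when its adjusted p was under 0.05. In IL-4/IL-6 relative to IL-13/IL-6, 1326 genes were higher, 10.5% of those tested, and 1574 genes were lower, 12.5% of those tested. A log2 fold change beyond 1 was reached by 265 of the higher genes (2.11% of all tested) and 455 of the lower genes (3.62%). The median change was 0.54 on the log2 scale among the higher genes and -0.70 among the lower genes, and 1061 of the higher and 1119 of the lower genes differed by less than 2-fold. The largest fitted changes were on the IL-4/IL-6 side: 33 higher genes and 12 lower genes had a log2 fold change beyond 3. Among all called genes, 13 higher and 10 lower ones had at most 3 counts in every library of the other group. The fitted size of such a change depends on the prior count. Omission of 1 library moved the number of higher genes by more than 1.5 times in 4 cases, to 809 without IL-4/IL-6 replicate 1 and to 773, 708 and 750 without IL-13/IL-6 replicate 1, 2 and 3, and the number of lower genes to 953, 1040, 1002 and 977 in the same order. The counts beyond a log2 fold change of 1 kept within 1.5 times of the values above under each of these omissions, and 585 higher and 772 lower genes were called in every alternative that was run. The number of higher genes was 768 with the replicate number as a block and 2207 with all 15 libraries in the fit.

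**Figure D1:**
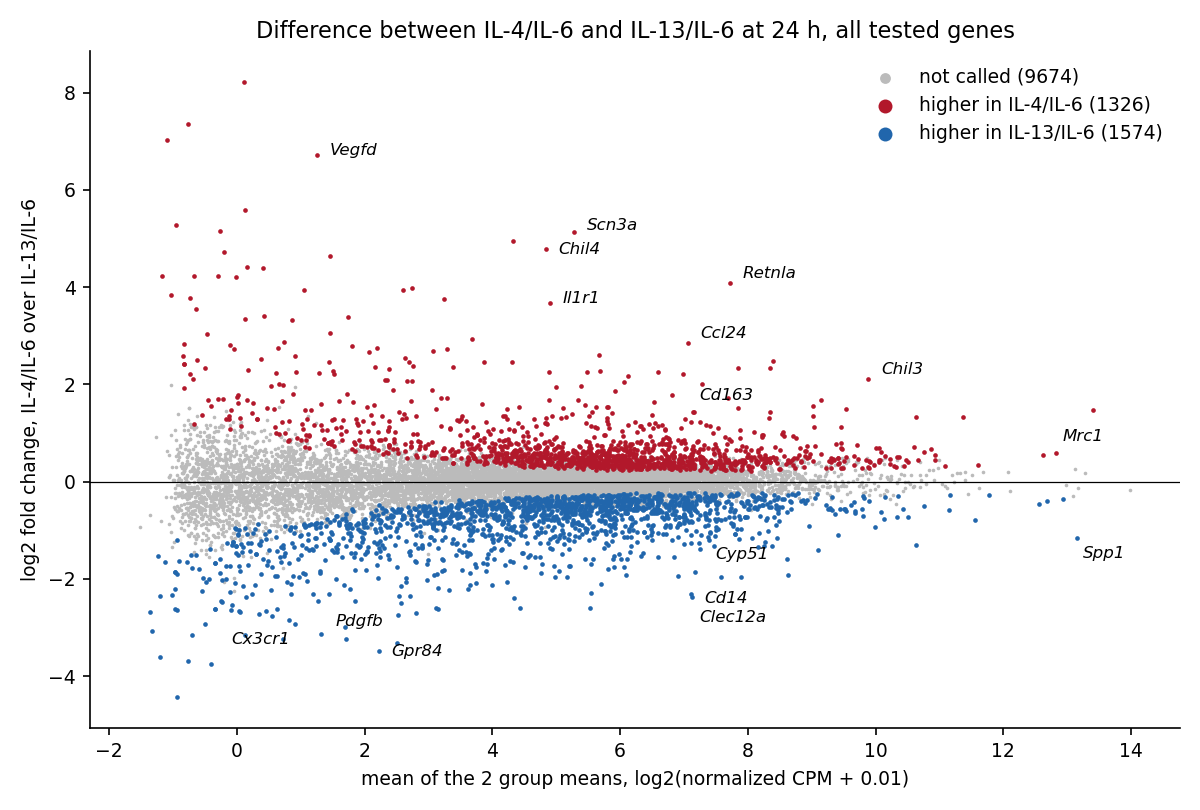
Log2 fold change of IL-4/IL-6 over IL-13/IL-6 (vertical axis) against the mean level of the 2 groups (horizontal axis, log2 of normalized CPM) for the 12574 tested genes, each point a gene. The 1326 genes higher in IL-4/IL-6 (red) reach further from 0 than the 1574 genes higher in IL-13/IL-6 (blue), and abundant transcripts such as *Mrc1* and *Spp1* lie among the called genes.

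The same difference without IL-6, IL-4 over IL-13, came from 6 other libraries and shares no sample with the comparison above. There, 12751 genes were tested with edgeR's quasi-likelihood test, 913 genes were called higher (7.16%) and 1068 lower (8.38%). The count, 1981 genes in all, moved with every library left out. It was 5340, 1304 and 1009 without IL-13 replicate 1, 2 and 3, and 1172, 1051 and 989 without IL-4 replicate 1, 2 and 3. Of the genes called higher with IL-6, 1264 were tested without IL-6, 88.4% of these had the same sign and 38.2% were also called in that direction, a share that was 22.2% with all 15 libraries in the fit. Of the genes called lower, 1560 were tested, 88.8% had the same sign and 42.0% were also called. Seen from the comparison without IL-6, 53.9% of its higher genes and 62.6% of its lower genes, among those tested in both comparisons, were called in the same direction with IL-6. An opposite call was found for 48 genes. A direct test of whether the difference between IL-4 and IL-13 itself differed with IL-6, over the 12 treated libraries (edgeR, interaction contrast), called 858 of 13208 genes (6.5%), of which 339 were positive and 519 negative. This contrast is given below as the difference of differences, which is the log2 fold change with IL-6 minus that without it.

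Genes of alternative activation were mostly higher in IL-4/IL-6. Of 33 tested members of a list of 35 such genes, 24 were called higher and 1 lower, and the median log2 fold change was 0.74, against -0.00 over all tested genes. Without IL-6, 26 of 31 tested members were called higher in IL-4 than in IL-13, with a median of 1.08. The difference of differences was called for 12 of 33 members, of which 3 were positive and 9 negative, and its median over the list was -0.29.

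*Chil3*, which encodes the chitinase-like protein Ym1, showed one of the smallest p-values of the comparison. It was at 1459, 1676 and 1476 CPM in IL-4/IL-6 and 349.7, 369 and 359 CPM in IL-13/IL-6, a log2 fold change of 2.11 ± 0.08 (SE, adjusted p = 1.8e-06). The groups did not overlap, and its gap was larger with IL-6 than without (difference of differences 0.59, adjusted p = 0.0018). Its neighbor and paralog *Chil4*, encoding Ym2, was at 49.1, 62.6 and 53.4 CPM against 2.52, 1.65 and 1.87 CPM, a log2 fold change of 4.78 ± 0.17. *Retnla*, which encodes the secreted protein RELMα, was at 341, 527 and 324 CPM in IL-4/IL-6 and 22.6, 24.7 and 23.2 CPM in IL-13/IL-6 (log2 fold change 4.09 ± 0.20). Its level was 741 ± 53.7 CPM (SD, n = 3) with IL-4 alone and 51.4 ± 5.14 CPM with IL-13 alone, and the effect of adding IL-6 was not tested. Its gap on the log2 scale was 3.85 without IL-6, and the difference of differences was not called (adjusted p = 0.63).

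Other members with a log2 fold change above 2 were *Ccl24*, encoding eotaxin-2 (2.86), the C-type lectin gene *Cd209e* (3.94), *Ch25h*, encoding cholesterol 25-hydroxylase (2.61), and *Pdcd1lg2*, encoding the PD-1 ligand PD-L2 (2.46). *Cd209d* was at 2.55, 2.31 and 1.52 CPM in IL-4/IL-6 and held at most 1 count in any IL-13/IL-6 library, so that it was at least 12.5-fold higher against a floor of 3 counts per library. *Cd209e* held almost no counts without IL-6, 0.0188 ± 0.0325 CPM in IL-4 and listed at 0 in all 3 IL-13 libraries. *Tfec*, which encodes a transcription factor of the MiT family, was at 251, 276 and 223 CPM against 61.8, 62.4 and 64.04 CPM (log2 fold change 2.00 ± 0.10), and its gap without IL-6 was 0.65 (difference of differences 1.37, adjusted p = 4.0e-05). Smaller differences were found for the arginine transporter *Slc7a2* (1.68), the VEGF receptor gene *Flt1* (1.24), the E-cadherin gene *Cdh1* (1.19), the transcription factor *Klf4* (0.91), the lectin *Mgl2* (0.74) and *Egr2* (0.51). The mannose receptor gene *Mrc1* was at 8682, 7790.0 and 9649.8 CPM in IL-4/IL-6 and 5548, 6292 and 5561 CPM in IL-13/IL-6, a log2 fold change of 0.59 ± 0.09 without overlap. The 1 lower member was the fatty acid receptor gene *Cd36* (-0.29, adjusted p = 0.024), whose call was lost without IL-4/IL-6 replicate 1 (adjusted p = 0.063) and without IL-13/IL-6 replicate 1, 2 or 3 (0.11, 0.095 and 0.066). It was also lost with the replicate number as a block (adjusted p = 0.097) and with the length trend as an offset (0.066). The number of lower members was 2 without IL-4/IL-6 replicate 2 or 3. *Irf4*, a STAT6 target, was at 3.01, 3.47 and 3.27 CPM against 2.93, 3.09 and 2.72 CPM and did not pass the test (log2 fold change 0.17, adjusted p = 0.55), while without IL-6 it was 37.9 ± 1.12 CPM in IL-4 and 12.04 ± 2.11 in IL-13 (difference of differences -1.46, adjusted p = 5.8e-04).

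**Figure D2:**
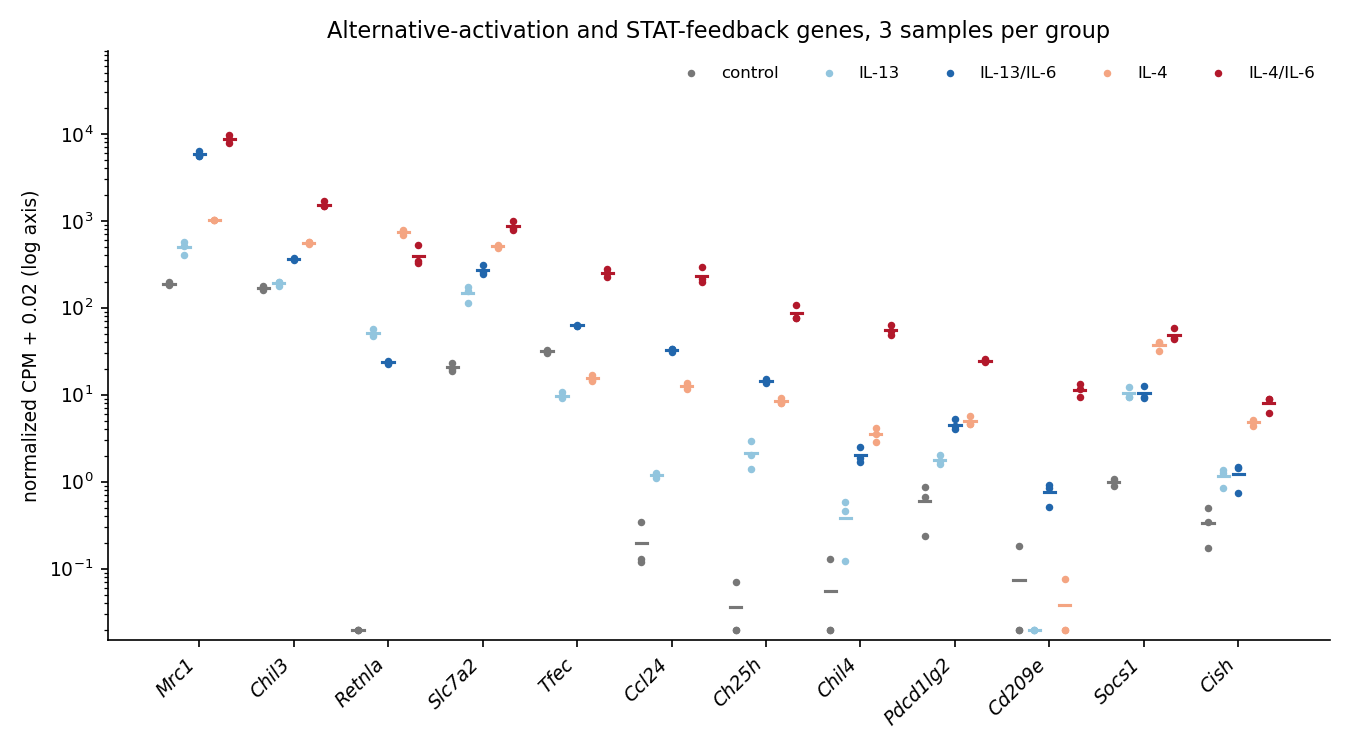
Normalized CPM (log axis, with 0.02 added) of 12 genes of alternative activation and STAT feedback in the 15 libraries, with a point for each library and a line at the mean of each group of 3. For each of these genes the 3 IL-4/IL-6 points (red) lie above the 3 IL-13/IL-6 points (dark blue).

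The promoters of some of these genes are shown because STAT6 binds inverted TTC repeats spaced by 4 bases and other STAT proteins favor a spacing of 3. In the RefSeq promoter table (GRCm38.p6, 250 bases before to 50 bases after each annotated start), TTC followed after 4 bases of any kind by GAA, which reads the same on both strands, occurs for 5 of the 16 members found in it among the 24 called higher, and for 8.01% of all 27025 genes in the table. The letters TTCNNNGAA occur for 2 of the 16 members and for 9.55% of all genes. The share among members that were not called was not counted. The matches are a description of sequence and show no binding. In the promoters below, capitals mark these letters. *Retnla* lies at chr16:48842359-48842658 on the plus strand, *Pdcd1lg2* at chr19:29410669-29410968 on the plus strand and *Cd209e* at chr8:3854237-3854536 on the minus strand, with the 4-base spacing, beginning 145, 82 and 79 bases before the start. *Chil3* at chr3:106167515-106167814 and *Chil4* at chr3:106219430-106219729, both on the minus strand, hold the same 9 letters of the TTCNNNGAA kind, which begin 172 and 200 bases before the start.
Retnla: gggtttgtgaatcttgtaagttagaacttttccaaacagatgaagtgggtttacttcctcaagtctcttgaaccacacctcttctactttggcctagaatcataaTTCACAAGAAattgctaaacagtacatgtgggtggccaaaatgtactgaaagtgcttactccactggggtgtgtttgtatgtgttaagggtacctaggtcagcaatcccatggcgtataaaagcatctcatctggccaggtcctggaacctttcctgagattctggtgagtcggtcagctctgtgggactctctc
Pdcd1lg2: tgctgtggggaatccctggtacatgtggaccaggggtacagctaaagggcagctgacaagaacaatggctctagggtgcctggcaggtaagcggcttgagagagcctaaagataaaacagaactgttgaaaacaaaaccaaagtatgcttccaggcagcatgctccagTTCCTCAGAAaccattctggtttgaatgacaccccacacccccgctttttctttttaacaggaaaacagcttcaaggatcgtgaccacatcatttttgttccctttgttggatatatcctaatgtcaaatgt
Cd209e: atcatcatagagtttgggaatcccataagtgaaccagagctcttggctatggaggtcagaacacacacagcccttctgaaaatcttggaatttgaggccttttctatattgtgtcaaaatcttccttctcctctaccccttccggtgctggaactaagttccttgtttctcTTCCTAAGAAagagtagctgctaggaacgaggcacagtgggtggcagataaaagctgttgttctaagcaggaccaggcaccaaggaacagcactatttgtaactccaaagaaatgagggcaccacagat
Chil3: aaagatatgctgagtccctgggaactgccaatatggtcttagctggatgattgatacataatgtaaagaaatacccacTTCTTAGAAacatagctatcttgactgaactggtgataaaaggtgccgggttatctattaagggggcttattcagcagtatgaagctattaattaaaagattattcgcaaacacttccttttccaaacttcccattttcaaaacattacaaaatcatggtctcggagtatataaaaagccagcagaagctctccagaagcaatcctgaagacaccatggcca
Chil4: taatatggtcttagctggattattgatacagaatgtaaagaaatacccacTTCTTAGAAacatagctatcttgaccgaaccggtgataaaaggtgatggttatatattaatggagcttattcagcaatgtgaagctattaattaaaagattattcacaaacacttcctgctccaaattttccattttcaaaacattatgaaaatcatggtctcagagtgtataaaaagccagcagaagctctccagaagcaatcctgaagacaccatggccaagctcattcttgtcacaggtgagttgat

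Receptor chains and feedback genes of the IL-4 and IL-13 pathway changed in both directions, with 6 of 19 tested members of the list called higher and 6 lower. The receptor chain shared by both cytokines, *Il4ra*, was at 2552, 2009 and 2366 CPM in IL-4/IL-6 and 1546, 1572 and 1640.0 CPM in IL-13/IL-6, a log2 fold change of 0.55 ± 0.10 (adjusted p = 0.0036). The sign was the opposite without IL-6, where *Il4ra* was at 36.3 ± 1.73 CPM in IL-4 and 51.2 ± 0.621 in IL-13 (log2 fold change -0.50, difference of differences 1.08, adjusted p = 5.0e-05). *Il13ra1*, the second chain of the type II receptor, was lower in IL-4/IL-6, at 3.06, 3.53 and 3.85 CPM against 5.91, 7.82 and 5.88 CPM (log2 fold change -0.90 ± 0.18), and *Il2rg*, the second chain of the type I receptor, did not pass the test (-0.19, adjusted p = 0.42). Per length, the mean FPKM deposited for *Il4ra* was 365 ± 52.5 (SD, n = 3) in IL-4/IL-6 and 254 ± 6.97 in IL-13/IL-6, for *Il2rg* 5.50 ± 0.80 and 6.42 ± 0.66, and for *Il13ra1* 0.887 ± 0.107 and 1.70 ± 0.304, so that both second chains were far below the shared chain in both groups. *Il13ra2*, the decoy receptor for IL-13, was not among the genes tested.

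Of the suppressors of cytokine signaling, 3 were higher in IL-4/IL-6. *Cish* was at 8.85, 6.13 and 8.98 CPM against 1.46, 0.716 and 1.41 CPM (log2 fold change 2.74 ± 0.28), *Socs1* at 43.9, 45.3 and 58.05 CPM against 12.6, 9.31 and 9.16 CPM (2.25 ± 0.16) and *Socs2* at 11.5, 14.1 and 13.4 CPM against 2.98, 3.53 and 4.07 CPM (1.89 ± 0.16). In none of the 3 did the groups overlap, and for each the gap was of the same sign and called without IL-6, at 2.07, 1.84 and 2.18. *Jak2*, a kinase of the type II receptor and of gp130, was at 206, 189 and 226 CPM in IL-4/IL-6 and 69.7, 84.4 and 78.2 CPM in IL-13/IL-6 (1.43 ± 0.10), and that gap was larger than without IL-6 (difference of differences 1.11, adjusted p = 1.1e-04). *Stat6* itself (-0.43) and the phosphatase gene *Ptpn6*, encoding SHP-1 (-0.82), were lower in IL-4/IL-6. The promoter of *Cish*, at chr9:107296409-107296708 on the plus strand of GRCm38.p6, is shown because it holds TTCNNNGAA at 2 places, the first at the annotated start and the next 11 bases after it.
Cish: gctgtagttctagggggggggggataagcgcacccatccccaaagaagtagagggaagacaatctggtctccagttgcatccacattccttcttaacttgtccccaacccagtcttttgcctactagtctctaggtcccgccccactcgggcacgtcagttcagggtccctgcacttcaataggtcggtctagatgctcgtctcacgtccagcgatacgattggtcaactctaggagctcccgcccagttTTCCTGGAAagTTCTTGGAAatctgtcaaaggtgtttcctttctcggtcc

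Of 25 tested genes of the IL-6 receptor, of STAT3 signaling and of the acute phase, 9 were called higher and 5 lower. *Il1r1*, which encodes the type 1 receptor for IL-1, was at 56.6, 48.5 and 61.3 CPM in IL-4/IL-6 and 4.21, 4.41 and 4.53 CPM in IL-13/IL-6 (log2 fold change 3.67 ± 0.12). Its level was 4.99 ± 0.766 CPM in IL-4 and 1.51 ± 0.363 in IL-13, so the gap was larger with IL-6 (difference of differences 1.98, adjusted p = 2.2e-04). *Cebpd*, a transcription factor downstream of STAT3, was at 114, 162 and 141 CPM against 55.2, 38.2 and 42.3 CPM (1.63 ± 0.16), while without IL-6 it did not differ beyond the test (0.13, adjusted p = 0.47). *Il6st* (1.03), *Pim1* (0.96) and *Batf* (1.22) were also higher, and the IL-10 receptor gene *Il10ra* (-0.999) and the repressor *Bcl6* (-0.87) were lower. *Il6ra* was lower (-0.46, adjusted p = 0.016), a call that was lost without IL-13/IL-6 replicate 1, 2 or 3 (adjusted p = 0.060, 0.055 and 0.064). *Socs3* (0.25, adjusted p = 0.076), *Stat3* (-0.23, adjusted p = 0.16) and *Il10* (0.28, adjusted p = 0.26) did not pass the test, although *Socs3* passed it in DESeq2 (adjusted p = 0.048) and without IL-4/IL-6 replicate 2 or 3 (0.0080 and 0.049). The number of lower members fell to 3 without IL-4/IL-6 replicate 1 or IL-13/IL-6 replicate 1 or 2, and to 2 without IL-13/IL-6 replicate 3.

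In a list of ERK pathway genes, more members were called lower than higher, and ERK activity itself was not measured in these libraries. Of 23 tested targets and feedback genes of the ERK pathway, 3 were called higher and 9 lower in IL-4/IL-6, with a median log2 fold change of -0.18. The higher number was 5 without IL-4/IL-6 replicate 2. Without IL-6, 4 of 24 tested members were called higher in IL-4 than in IL-13 and 4 lower. *Egr1*, an immediate early gene, was at 1.93, 1.97 and 1.81 CPM against 5.44, 5.56 and 4.92 CPM in IL-13/IL-6 (log2 fold change -1.47 ± 0.17). *Dusp5*, which encodes an ERK phosphatase, was at 2.21, 1.79 and 2.28 CPM against 5.74, 4.74 and 5.26 CPM (-1.31 ± 0.19), and *Fos* at 22.9, 22.1 and 21.9 CPM against 54.7, 46.8 and 50.2 CPM (-1.17 ± 0.09). For these 3 genes all IL-13/IL-6 libraries lay above all IL-4/IL-6 libraries. The ERK feedback inhibitor *Spry2* (-0.96) and the cyclin gene *Ccnd1* (-0.98) were lower, and *Ier3* (1.17), *Emp1* (0.58) and *Myc* (0.51) were higher. *Dusp6*, another ERK phosphatase, was close in the 2 groups, at 143, 149.9 and 145 CPM and 131, 130.1 and 133 CPM (0.16, adjusted p = 0.13), whereas without IL-6 it was lower in IL-4 than in IL-13 (-0.78, difference of differences 0.96, adjusted p = 2.2e-05).

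Among chemokines, 7 of 19 tested members were called higher and 3 lower, with a median log2 fold change of -0.27. Without IL-6, 8 of 19 tested members were called higher in IL-4 than in IL-13 and 2 lower. The difference of differences was called negative for 2 of 20 tested members, and its median was -0.38. The CC chemokines for monocytes were on the higher side. *Ccl7* was at 3726, 4549 and 3088 CPM in IL-4/IL-6 and 1573, 1389 and 1624 CPM in IL-13/IL-6 (log2 fold change 1.32 ± 0.14), and *Ccl2*, which encodes MCP-1, at 2263, 2638 and 1932 CPM against 927, 837 and 969 CPM (1.33 ± 0.12). *Ccl8* (1.35) and *Ccl12* (1.16) differed by a similar amount. The 4 genes lie in 1 cluster on chromosome 11 and are close in sequence, so counting could have shared reads between them. *Ccl8* and *Ccl12* were far lower without IL-6, at 6.09 ± 2.08 and 3.00 ± 0.484 CPM in IL-4 and 1.75 ± 0.735 and 0.925 ± 0.283 CPM in IL-13, and their differences of differences were not called (adjusted p = 0.73 and 0.53). *Ccl24* was at 215, 293 and 196 CPM against 30.6, 33.6 and 33.3 CPM. *Ccl1*, a chemokine for CCR8, was at 0.851, 1.33 and 0.817 CPM in IL-4/IL-6 and held at most 1 count in any IL-13/IL-6 library, at least 5.87-fold higher against the floor of 3 counts per library, and was listed at 0 in all libraries without IL-6. On the lower side was *Cxcl16*, encoding the ligand of CXCR6, at 10.9, 11.6 and 8.75 CPM against 37.9, 27.2 and 40.96 CPM (-1.75 ± 0.18). The number of lower chemokines ranged from 1, without IL-4/IL-6 replicate 1 or IL-13/IL-6 replicate 1 or 3, to 5 and 6 without IL-4/IL-6 replicate 3 and 2.

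The chemokine receptors that were called were all lower, with 4 of 8 tested members lower and 0 higher in edgeR (5 and 0 at an unadjusted p under 0.05, and 4 and 0 in DESeq2). *Cx3cr1*, the fractalkine receptor, was at 0.907, 0.347 and 0.583 CPM in IL-4/IL-6 and 6.91, 4.96 and 5.88 CPM in IL-13/IL-6 (log2 fold change -3.24 ± 0.30), against 5.46 ± 1.10 CPM in IL-4, 39.2 ± 2.65 in IL-13 and 132 ± 8.07 in control. *Ccr2*, the receptor for CCL2, was at 4.20, 2.49 and 4.32 CPM against 14.9, 14.6 and 11.99 CPM (-1.91 ± 0.21). *Ccr3* (-0.77) was lower in IL-4/IL-6, although without IL-6 it was higher in IL-4 than in IL-13 (0.70), and the difference of differences was -1.45 (adjusted p = 4.6e-05).

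Growth factors of 1 family split between the groups. *Pdgfb* was at 2.38, 2.25 and 2.74 CPM in IL-4/IL-6 and 16.8, 13.2 and 15.6 CPM in IL-13/IL-6 (log2 fold change -2.62 ± 0.16), while *Pdgfa* (0.80 ± 0.10) and *Pdgfc* (1.48 ± 0.10) were higher in IL-4/IL-6. Without IL-6 the gap of *Pdgfb* was -0.34, and the difference of differences was -2.25 (adjusted p = 4.3e-06). *Vegfd*, which encodes a ligand of the VEGF receptors, was at 4.48, 4.80 and 4.84 CPM in IL-4/IL-6 and held at most 2 counts in any IL-13/IL-6 library, at least 27.7-fold higher against the floor of 3 counts per library, and its mean in IL-4, IL-13 and control was at most 0.251 CPM. The EGF-family gene *Hbegf* was at 102, 112 and 109.8 CPM against 25.05, 29.97 and 23.99 CPM (2.04 ± 0.10), and the neurotrophic factor gene *Gdnf* at 4.54, 4.85 and 4.73 CPM against 1.17, 0.826 and 1.07 CPM (2.204 ± 0.21). The collagenase gene *Mmp13* was higher (1.21). Over the whole list of matrix genes, proteases and growth factors, 8 of 27 tested members were higher and 7 lower, with a median log2 fold change of -0.07.

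Under the rule for the 15 largest changes in each direction, further genes higher in IL-4/IL-6 were *Hhip*, *Scn3a*, *Tuba8*, *Car4*, *Cd209c*, *Trpm5*, *Ddx4*, *Lrrd1* and the long noncoding RNA 3300005D01Rik. *Scn3a*, which encodes a sodium channel subunit, was at 77.8, 58.8 and 90.4 CPM in IL-4/IL-6 and 1.81, 2.53 and 2.15 CPM in IL-13/IL-6 (log2 fold change 5.13 ± 0.20), and *Tuba8*, an alpha tubulin gene, at 38.3, 44.2 and 34.2 CPM against 1.46, 1.43 and 0.905 CPM (4.94 ± 0.19). Both were called in the same direction without IL-6 (6.55 and 3.93). *Hhip*, encoding a hedgehog-binding protein, was at 2.15, 1.79 and 2.45 CPM in IL-4/IL-6 with 0 counts in IL-13/IL-6, at least 12.5-fold higher against the floor. 3300005D01Rik was at 15.7, 20.7 and 16.4 CPM against 1.70, 1.27 and 0.962 CPM (3.75 ± 0.22), with a gap of 0.44 without IL-6 that was not called. *Habp4*, which encodes a hyaluronan- and RNA-binding protein, was among the 5 smallest p-values on the higher side, at 149.8, 169.6 and 162 CPM against 35.2, 32.6 and 33.3 CPM (2.26 ± 0.08), and its gap without IL-6 was 0.33 (difference of differences 1.96, adjusted p = 5.1e-07). Of the 157 genes chosen by rule or named here, 46 overlap an annotated gene of the other strand, among them *Scn3a*, *Tuba8* and *Hhip*, and 18 overlap one of the same strand, among them *Il1r1* and *Cx3cr1*. Whether counting used the strand is not given in the sources used here, so the values of such genes are uncertain, as are those of the close paralogs *Chil3* and *Chil4* and of *Cd209c*, *Cd209d* and *Cd209e*.

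On the lower side, the largest change under the rule was that of *Gpr84*, a receptor for medium-chain fatty acids, at 0.737, 0.694 and 0.817 CPM in IL-4/IL-6 and 8.43, 6.83 and 10.5 CPM in IL-13/IL-6 (log2 fold change -3.50 ± 0.24). *Ifitm6* (-2.73), *Neurl3* (-2.70), *Sncaip* (-3.33), *Itga8* (-2.72, and -3.86 without IL-4/IL-6 replicate 3), *Ambp* (-2.84) and *Ptchd1* (-2.77) were further genes of this rule, beside *Cx3cr1*, *Pdgfb* and 3 interferon-inducible genes (*Ifi206*, *Ifi213* and *Ms4a4c*) described with that group. The smallest p-values were those of *Cd14*, *Tlr13*, *Ctsc*, *Pid1* and *Sema4d*. *Ctsc*, encoding the protease cathepsin C, was at 96.1, 99.1 and 93.5 CPM against 376, 373 and 388 CPM (-1.97 ± 0.07), *Pid1* at 61.2, 60.7 and 63.6 CPM against 228, 220.2 and 232 CPM (-1.87 ± 0.07) and the semaphorin gene *Sema4d* at 11.6, 13.004 and 14.5 CPM against 82.3, 73.7 and 82.6 CPM (-2.60 ± 0.11). In these 3 genes the replicates of each group lay close together and far from the other group, and all 3 gaps were larger with IL-6 than without (differences of differences -0.99, -0.96 and -1.54).

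Among receptors for microbial products and for dying cells, more genes were lower than higher in IL-4/IL-6. Of 20 tested Toll-like and Fc receptor genes and their partners, 9 were lower and 3 higher, and the lower number was 6 without IL-13/IL-6 replicate 2 or 3. Of 24 scavenger and efferocytosis receptors 15 were lower and 3 higher, with a median log2 fold change of -0.58. Without IL-6, 7 of the 20 and 15 of the 24 were called lower in IL-4 than in IL-13. *Cd14*, the co-receptor for lipopolysaccharide, was at 44.9, 50.7 and 43.5 CPM in IL-4/IL-6 and 239.9, 226 and 227 CPM in IL-13/IL-6 (log2 fold change -2.31 ± 0.09, adjusted p = 1.8e-06), and *Tlr13*, a sensor of bacterial RNA, at 77.7, 76.6 and 79.5 CPM against 302, 313 and 304 CPM (-1.97 ± 0.07). *Tlr2* (-1.83) and the high-affinity IgG receptor *Fcgr1* (-1.16) were lower as well. The lectin *Clec12a*, an inhibitory receptor for uric acid crystals, was at 40.8, 52.3 and 41.7 CPM against 242, 222 and 244 CPM (-2.38 ± 0.11), and *Clec4e*, which encodes Mincle, at 4.76, 5.20 and 8.40 CPM against 39.4, 28.3 and 44.3 CPM (-2.60 ± 0.24). *Cd93* (-1.93), the scavenger receptor *Msr1* (-1.10), *Lrp1* (-1.30) and the TAM kinase *Axl* (-1.48) followed.

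The 6 members of these lists that were higher were *Fcgr2b*, *Fcgr3*, *Fcgrt*, *Cd163*, *Mrc1* and *Clec7a*. *Fcgr2b*, the inhibitory IgG receptor, was at 1096, 1096 and 1089 CPM in IL-4/IL-6 and 391, 401 and 384 CPM in IL-13/IL-6 (log2 fold change 1.49 ± 0.07), and *Fcgrt*, the neonatal Fc receptor, was also higher (1.05). *Cd163*, the receptor for haptoglobin and hemoglobin, was at 221, 167 and 228 CPM against 72.3, 86.7 and 71.6 CPM (1.43 ± 0.13), although without IL-6 it was lower in IL-4 (15.5 ± 0.853) than in IL-13 (23.9 ± 4.26), and the sign change gave a difference of differences of 2.08 (adjusted p = 2.7e-05). Of the macrophage identity list, 9 of 18 members were lower, among them *Cd14*, *Fcgr1* and *Cx3cr1*, and 2 were higher, among them *Cd163*. *Csf1r*, *Adgre1* and *Cd68* did not pass the test. In bulk RNA, fewer cells of a kind and less RNA per cell cannot be told apart.

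Interferon-stimulated genes were mostly lower in IL-4/IL-6. Of 41 tested members, 26 were lower and 0 higher in edgeR's quasi-likelihood test, with a median log2 fold change of -0.84. At an unadjusted p under 0.05 the numbers were 33 lower and 1 higher, and DESeq2 called 28 lower and 1 higher. *Ifit3* was at 1.25, 1.79 and 2.28 CPM in IL-4/IL-6 and 6.44, 6.23 and 17.6 CPM in IL-13/IL-6 (log2 fold change -2.50 ± 0.45, adjusted p = 0.0045). *Oas3*, encoding an enzyme that senses double-stranded RNA, was at 18.8, 19.2 and 27.5 CPM against 56.9, 60.1 and 97.4 CPM (-1.70 ± 0.23), and the transcription factor gene *Irf7* at 16.7, 17.7 and 18.96 CPM against 35.3, 33.7 and 82.4 CPM (-1.50 ± 0.32). In these 3 genes the groups did not overlap, and IL-13/IL-6 replicate 3 was by far the highest of the 6 libraries. Over the list, the median level relative to the mean of the 6 libraries was 0.94 (log2) in that library against 0.19 and 0.18 in IL-13/IL-6 replicates 1 and 2, and -0.16 in IL-4/IL-6 replicate 3 against -0.51 and -0.47 in replicates 1 and 2. Without IL-13/IL-6 replicate 3 the number of lower members was 14, and without IL-4/IL-6 replicate 1 it was 13. The 3 genes named above for their size, *Ifi206* (-3.13), *Ifi213* (-2.66) and *Ms4a4c* (-2.94), had the same high library. Without it their log2 fold changes were -2.35, -1.81 and -1.53, and that of *Ifit3* was -1.83. The differences of *Ifi213* and *Ms4a4c* were not called without IL-4/IL-6 replicate 1 (adjusted p = 0.083 and 0.13) or without IL-13/IL-6 replicate 3 (0.064 and 0.13), nor was *Ms4a4c* without IL-4/IL-6 replicate 3 (0.052). *Irf8*, which also serves macrophage development, was lower with close replicates, at 124, 122 and 130.0 CPM against 199.7, 191 and 201 CPM (-0.65 ± 0.07). Without IL-6, 20 of 40 tested members were lower in IL-4 than in IL-13 and 0 were higher in edgeR (26 and 0 at an unadjusted p under 0.05), with a median of -0.36.

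Promoters of this group are shown because GAAA followed after 2 bases of any kind by GAAA, the core of the interferon-stimulated response element, searched on both strands, occurs for 12 of the 21 called-lower members in the RefSeq table and for 3.99% of all genes. This motif was chosen after the calls had been seen. Its share among members of the list that were not called was not counted, so the match says nothing on the direction of the difference. *Ifit3*, at chr19:34583279-34583578 on the plus strand of GRCm38.p6, holds the letters on the opposite strand at 2 places, beginning 156 and 122 bases before the start, and *Oas3*, at chr5:120777610-120777909 on the minus strand, holds them 75 bases before the start. Capitals mark the matches.
Ifit3: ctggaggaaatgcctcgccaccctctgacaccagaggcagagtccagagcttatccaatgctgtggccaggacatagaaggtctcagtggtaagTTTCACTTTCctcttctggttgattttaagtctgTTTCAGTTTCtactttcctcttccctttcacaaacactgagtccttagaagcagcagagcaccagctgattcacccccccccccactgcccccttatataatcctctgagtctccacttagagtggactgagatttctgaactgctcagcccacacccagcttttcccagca
Oas3: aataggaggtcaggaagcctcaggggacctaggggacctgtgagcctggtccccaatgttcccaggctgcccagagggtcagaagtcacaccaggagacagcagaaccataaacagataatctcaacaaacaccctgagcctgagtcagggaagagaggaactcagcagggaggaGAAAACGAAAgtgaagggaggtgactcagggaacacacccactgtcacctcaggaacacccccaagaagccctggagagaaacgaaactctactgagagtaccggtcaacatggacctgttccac

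Inflammatory genes under NF-κB showed a similar lean, with 13 of 23 tested members lower and 2 higher, and 11 of 22 lower without IL-6. *Nfkbiz*, encoding the nuclear regulator IκBζ, was at 2.78, 3.35 and 4.43 CPM against 12.1, 12.4 and 15.9 CPM (log2 fold change -1.92 ± 0.20), and *Tnf* at 8.85, 8.15 and 11.6 CPM against 23.2, 18.6 and 26.1 CPM (-1.24 ± 0.17). The inhibitor *Nfkbie* (-1.19) and the IL-1 receptor antagonist *Il1rn* (-1.09) were lower, so the list held inducers and inhibitors alike. *Nfkb1*, encoding p105, was higher (0.57). Omission of IL-4/IL-6 replicate 1 or of IL-13/IL-6 replicate 3 left 8 lower members, and the 2 higher ones became 1 under the omission of any library other than IL-4/IL-6 replicate 2.

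Of the 26 lists of pathways and gene families plotted together, that of cholesterol had the largest share of members called in 1 direction. Of 24 tested genes of cholesterol synthesis and uptake, 22 were lower in IL-4/IL-6 and 0 higher in edgeR and in DESeq2 (23 and 0 at an unadjusted p under 0.05), and the median log2 fold change was -0.85. *Cyp51*, a demethylase of the synthesis pathway, was at 94.5, 111 and 100.4 CPM in IL-4/IL-6 and 245, 242 and 219 CPM in IL-13/IL-6 (log2 fold change -1.20 ± 0.09). *Fdft1*, encoding squalene synthase, was at 39.4, 46.4 and 38.7 CPM against 94.5, 87.8 and 94.02 CPM (-1.14 ± 0.10). In both the lowest IL-13/IL-6 library was above the highest IL-4/IL-6 library. *Hsd17b7* (-1.21) and the sterol sensor gene *Insig1* (-0.90) were lower in the same way, and the 2 members without a call were *Ebp* and *Pmvk*. Without IL-6, 3 of the 24 were lower in IL-4 than in IL-13 and 0 were higher in edgeR (8 and 1 at an unadjusted p under 0.05), and 18 of the 24 were called in the difference of differences, all negative. Of these, *Cyp51* had a gap of -0.08 without IL-6 and a difference of differences of -1.10 (adjusted p = 3.0e-05). The median level of the list, relative to the mean of the 6 libraries, was 0.37 to 0.50 (log2) in IL-13/IL-6 and -0.47 to -0.40 in IL-4/IL-6, against -0.57 to -0.50 in IL-13 and -0.69 to -0.65 in IL-4 and -0.29 to -0.24 in control, so IL-13/IL-6 was the group that stood above the other 4.

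Genes of cholesterol efflux and of the nuclear receptor LXR were mixed, with 2 of 14 higher (14.3%) and 6 lower (42.9%), against 10.5% and 12.5% of all tested genes. *Scd1*, encoding a fatty acid desaturase, was at 3.29, 3.87 and 5.78 CPM against 16.6, 23.5 and 20.4 CPM (log2 fold change -2.22 ± 0.22), and the efflux transporter *Abca1* was lower (-1.36). *Abcg1*, another efflux transporter, was higher (0.97). *Mylip*, which encodes a ubiquitin ligase induced by LXR, was at 62.2, 58.7 and 75.4 CPM against 24.8, 27.2 and 25.1 CPM (1.36 ± 0.11), and its sign was the opposite without IL-6 (-0.48, difference of differences 1.86, adjusted p = 5.3e-06).

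**Figure D3:**
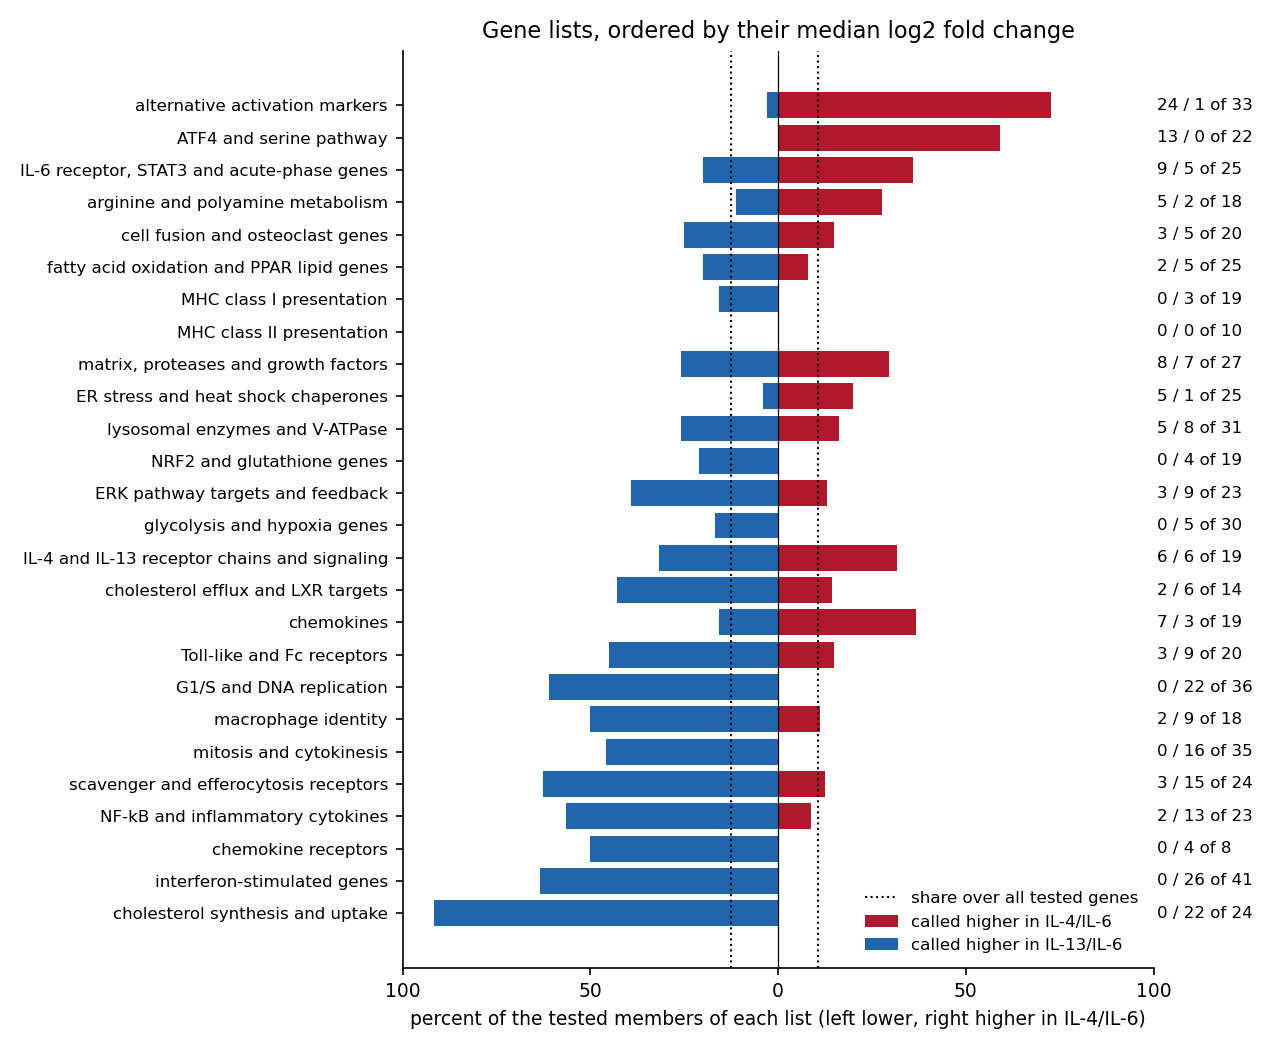
Share of the tested members of 26 gene lists that were called higher (red, to the right) or lower (blue, to the left) in IL-4/IL-6, ordered by the median log2 fold change, with the numbers higher and lower of those tested at the right. Dotted lines mark the shares over all tested genes, 10.5% higher and 12.5% lower. Alternative activation and the ATF4 and serine genes stand at the top and cholesterol synthesis at the bottom.

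Many genes of the cell cycle were lower in IL-4/IL-6. Of 36 tested genes of the G1/S transition and DNA replication, 22 were lower and 0 higher, with a median of -0.43, and of 35 genes of mitosis and cytokinesis 16 were lower and 0 higher, with a median of -0.48. At an unadjusted p under 0.05 these numbers were 27 and 0 and 24 and 0, and in DESeq2 23 and 0 and 15 and 0. Without IL-6, 3 of the 36 and 12 of the 35 were called lower in IL-4 than in IL-13. *Pcna*, the sliding clamp of DNA polymerases, was at 487, 587 and 454 CPM in IL-4/IL-6 and 847, 784 and 809 CPM in IL-13/IL-6 (log2 fold change -0.67 ± 0.10), and the helicase subunit *Mcm5* at 113, 112 and 119.9 CPM against 179, 169.8 and 171 CPM (-0.58 ± 0.07). *Kif11*, a motor of the mitotic spindle, was at 8.45, 5.55 and 7.53 CPM against 12.99, 14.8 and 11.3 CPM (-0.85 ± 0.18), and the centromere gene *Cenpa* was lower by a similar amount (-0.83). The count for G1/S was 14 without IL-4/IL-6 replicate 1. That for mitosis was 6 without IL-4/IL-6 replicate 1 or IL-13/IL-6 replicate 1 or 2, and 9 without IL-13/IL-6 replicate 3. With the replicate number as a block the count for mitosis was 8. Relative to the mean of the 6 libraries, the median level of the mitosis genes was 1.62 to 1.67 (log2) in IL-13 and 1.29 to 1.47 in IL-4, and -0.26 to -0.15 in IL-4/IL-6 and 0.15 to 0.33 in IL-13/IL-6, so both groups with IL-6 lay below both groups without it.

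Of 22 tested genes of the ATF4 and serine pathway, which makes serine and other amino acids under amino acid limitation, 13 were higher in IL-4/IL-6 and 0 lower in edgeR and in DESeq2 (16 and 0 at an unadjusted p under 0.05), with a median of 0.49. *Atf4* was at 328, 385 and 309 CPM against 249.6, 250.4 and 246 CPM (log2 fold change 0.46 ± 0.09). *Phgdh*, the first enzyme of serine synthesis, was at 159.6, 203 and 157 CPM against 114, 108 and 114 CPM (0.64 ± 0.11), and *Shmt2*, the mitochondrial enzyme of serine use, was higher (0.51). The count of higher members was 7 without IL-13/IL-6 replicate 1 and 8 without replicate 2 or 3 of that group. Without IL-6, 11 of the 22 were higher in IL-4 than in IL-13. In arginine and polyamine metabolism, 5 of 18 genes were higher (27.8%) and 2 lower (11.1%), against 10.5% and 12.5% of all tested genes. The lower number was 1 without IL-4/IL-6 replicate 1 or any 1 of the IL-13/IL-6 replicates, and 1 with the replicate number as a block. Beside *Slc7a2*, the ornithine decarboxylase gene *Odc1* was at 306, 322 and 269 CPM against 191, 172 and 182 CPM (0.73 ± 0.09) and the spermidine synthase gene *Srm* was higher (0.78).

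In a list of cell fusion and osteoclast genes, 3 of 20 were higher (15%) and 5 lower (25%), against 10.5% and 12.5% of all tested genes. The number higher was 5 without IL-4/IL-6 replicate 3 and 6 with all 15 libraries in the fit. The tetraspanin gene *Cd81* was at 514, 636 and 475 CPM in IL-4/IL-6 and 115, 104 and 107 CPM in IL-13/IL-6 (log2 fold change 2.33 ± 0.12), with a smaller gap without IL-6 (0.66, difference of differences 1.70, adjusted p = 1.2e-05). The integrin gene *Itgb3* was higher (1.39) and the unconventional myosin gene *Myo10* lower (-1.59). Of 10 tested genes of MHC class II presentation, 0 were called in edgeR, 0 had an unadjusted p under 0.05 and 0 were called in DESeq2, while 1 was called lower without IL-4/IL-6 replicate 2 and 1 with all 15 libraries in the fit. Without IL-6, 6 of 12 tested members of that list were higher in IL-4 than in IL-13.

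Of the 10 transcripts with the highest deposited FPKM over the 6 libraries, 3 were called higher in IL-4/IL-6, among them *Ccl7* and the galectin-3 gene *Lgals3* (0.55), and 2 lower, namely *Spp1* and the lysozyme gene *Lyz2* (-0.36). *Spp1*, which encodes osteopontin, was at 5238, 6639.7 and 4853 CPM against 13302, 12467 and 11949.8 CPM (log2 fold change -1.16 ± 0.12). The call of *Lyz2* was lost under the omission of any library other than IL-4/IL-6 replicate 2 (adjusted p between 0.071 and 0.15) and with the replicate number as a block (0.086), and that of *Lgals3* without IL-13/IL-6 replicate 2 (0.062). *Fth1*, *mt-Co1*, *Eef1a1*, *Apoe* and the short noncoding transcript *Gm23935* did not pass the test, and without IL-4/IL-6 replicate 2 *Fth1* and *Apoe* were called lower, with log2 fold changes of -0.48 and -0.24. *Fth1* was also called lower with no filter on low counts (-0.29, adjusted p = 0.039) and with the length trend as an offset (-0.36, adjusted p = 0.024).

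**Figure D4:**
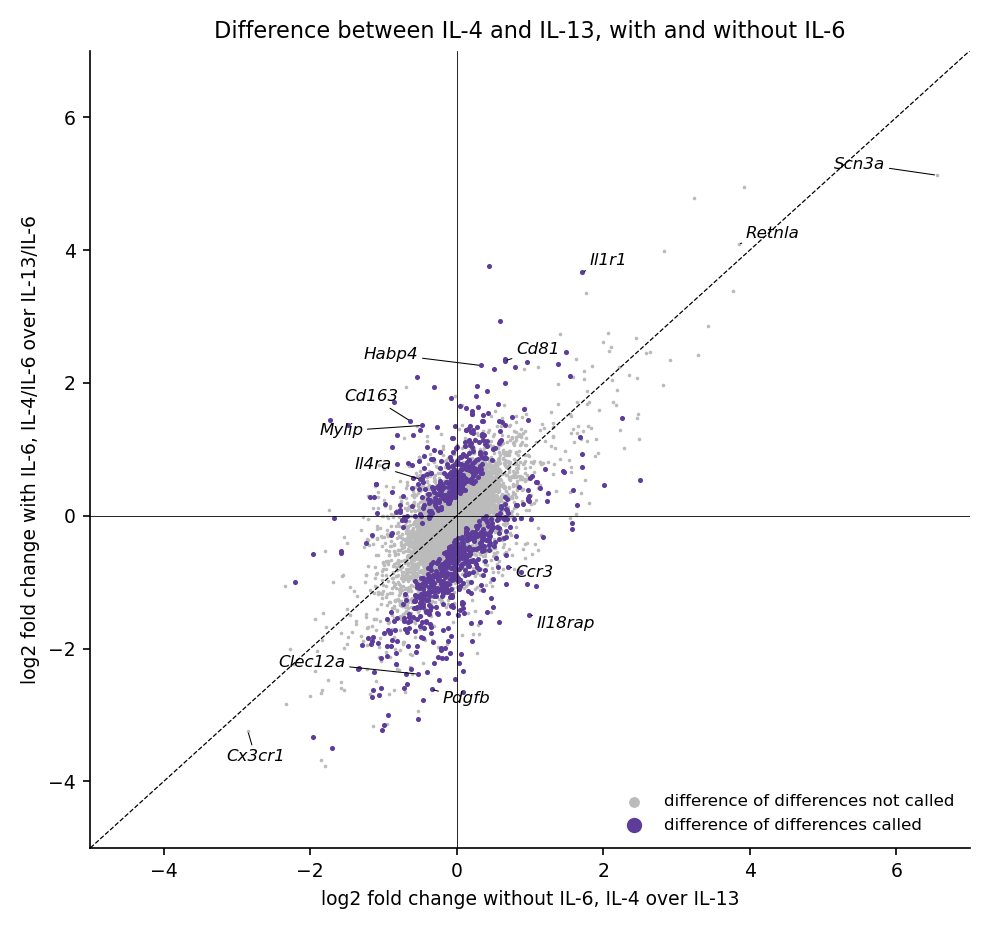
Log2 fold change with IL-6 (IL-4/IL-6 over IL-13/IL-6, vertical axis) against that without IL-6 (IL-4 over IL-13, horizontal axis) for the genes tested in both, each point a gene, and the dashed line marks equal values. Purple points are genes called in the difference of differences, among them *Il4ra*, *Cd163* and *Mylip*, which lie to the left of 0 without IL-6 and above 0 with it.

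The 2 comparisons, which share no sample, were set side by side for the 12306 genes tested in both. Of these, 73.5% had the same sign, and the median size of the difference was 0.24 (log2) with IL-6 and 0.17 without. Of the 2900 genes called with IL-6, 703 were also called in the difference of differences, and of the 720 beyond a log2 fold change of 1, 290 were. Over all 13208 genes tested for the difference of differences, 6.5% were called. That test contains the same libraries with IL-6, so this overlap is not an independent result. Among the genes with the largest negative differences of differences, *Il18rap*, a chain of the IL-18 receptor, was at 1.36, 2.08 and 2.86 CPM in IL-4/IL-6 and 4.97, 7.38 and 5.43 CPM in IL-13/IL-6 (-1.49), and at 15.3 ± 0.191 CPM in IL-4 and 7.71 ± 0.791 in IL-13 (0.99). The change of sign was -2.46 (adjusted p = 1.1e-04). *Smpd3*, encoding a sphingomyelinase, was at 0.907, 0.0578 and 1.23 CPM against 5.15, 3.97 and 3.11 CPM with IL-6, while without IL-6 the means were 4.51 ± 0.196 and 4.54 ± 0.947 CPM. Among the largest positive ones, *Fcrlb*, an Fc receptor-like gene, was at 6.18, 5.55 and 6.59 CPM against 0.936, 0.716 and 1.02 CPM with IL-6 and at 0.0918 ± 0.0846 and 0.237 ± 0.135 CPM without it, and *Dusp14*, encoding a dual-specificity phosphatase, was at 3.01, 2.72 and 2.39 CPM against 0.527, 0.441 and 0.226 CPM with IL-6 and at 0.0919 ± 0.0836 and 0.352 ± 0.254 CPM without it.

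**Figure D5:**
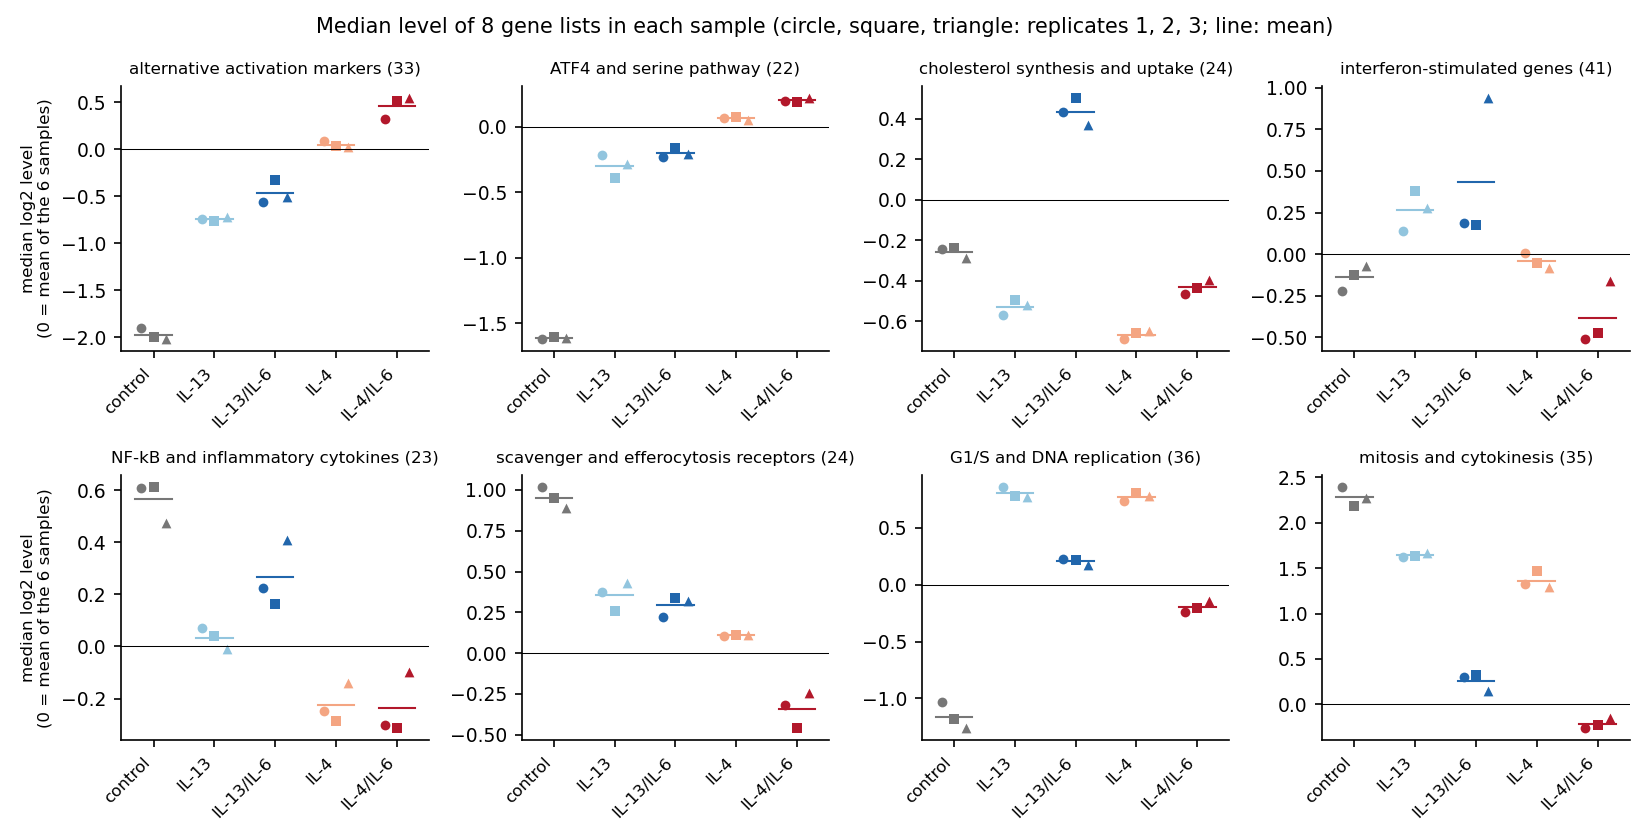
Median log2 level of 8 gene lists in each of the 15 libraries, relative to the mean of the 6 libraries with IL-6, with the number of genes in brackets, symbols for replicates 1, 2 and 3 and a line at the mean of each group. IL-13/IL-6 (dark blue) lies above the other 4 groups for cholesterol synthesis, and its replicate 3 stands apart for the interferon-stimulated genes.

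Marker genes of other cell types that marrow cultures could hold were low or carried mostly by single genes. Over 16 granulocyte markers the summed level was 128 to 153 CPM in IL-4/IL-6 and 71.2 to 83.6 in IL-13/IL-6, of which *Csf3r*, the G-CSF receptor gene, made up most (121, 113 and 138 CPM against 52.02, 59.7 and 62.96 CPM), and *Ly6g*, *Retnlg* and *Fcnb* were at 0. Without *Csf3r* the sums were 15.3 to 17.0 and 19.2 to 21.5. Over 12 B cell markers the sums were 24.97 to 29.4 and 25.9 to 29.4, and over 14 T and NK cell markers 0.525 to 1.21 and 0.716 to 1.02, with *Cd3d*, *Cd3e* and *Cd8a* at 0. The sum of 12 erythroid markers was almost all *Tfrc*, the transferrin receptor gene, and without it was at most 0.907 CPM. Stromal and endothelial markers summed to 19.1 to 25.4 CPM in IL-4/IL-6 and 41.9 to 43.4 in IL-13/IL-6, with *Col1a1*, *Col1a2* and *Pdgfra* at 0, and 2 of its genes went in opposite directions. These were *Kdr*, at 13.5, 10.5 and 16.7 CPM against 39.8, 40.3 and 40.1 CPM, and *Pecam1*, at 6.52, 8.09 and 7.06 CPM against 1.05, 1.21 and 1.13 CPM. The sums of 14 dendritic cell markers overlapped, at 361 to 508 and 299 to 406 CPM, and were mostly *Bst2*, without which they overlapped too (68.0 to 82.6 and 61.7 to 70.8 CPM). Of the 4 members tested, *Cd209a* (log2 fold change 2.38) and *Batf3* (1.35) were called higher in IL-4/IL-6, and 2 members were called higher under the omission of each library, while *Siglech* was at 0. The sums of the megakaryocyte and platelet list (291 to 375 and 423 to 483 CPM, mostly *Pf4*) and of the mast cell, basophil and eosinophil list (44.4 to 45.02 and 70.6 to 83.4 CPM, mostly *Ccr3*) did not overlap and lay above in IL-13/IL-6. Without *Pf4* the sums of the former overlapped and reached higher in IL-4/IL-6 (71.8 to 118.6 CPM) than in IL-13/IL-6 (60.8 to 74.3 CPM), and without *Ccr3* those of the latter were 2.04 to 2.89 and 4.13 to 4.41. For all of these markers their part in the results was not tested.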

How the data were processed

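The authors deposited raw read counts per Ensembl gene for the 15 libraries in 1 matrix, and FPKM values per gene beside them. The submitters' processing notes name CASAVA, Bowtie2 2.2.3, HISAT2 2.1.0, TopHat2, DESeq2 and the build GRCm38, without their roles, and the counting tool and its annotation are not given in the sources used here. Deposited FPKM values were used only to compare levels between genes.

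Counts were analysed in R 4.3.3 with edgeR 4.0.16. Genes were kept by filterByExpr (minimum count 10), libraries were scaled by TMM, and IL-4/IL-6 was compared with IL-13/IL-6 by a two-sided quasi-likelihood test on the 6 libraries, with p-values adjusted by the Benjamini-Hochberg procedure over all of them and a threshold of 0.05. IL-4 against IL-13 was fitted on its own 6 libraries, and the difference of differences on the 12 treated libraries. Named genes were those with an adjusted p under 0.05, groups without overlap and at least 2 CPM in the higher group, limited to the 15 with the largest change in each direction. To these were added the 5 smallest p-values in each direction, the 10 highest FPKM, the 5 largest differences of differences in each direction and members of gene lists. Some genes that this rule names are not reported here. The members and lists were chosen with earlier results of these data known. A gene that did not exceed 3 counts in any library of 1 group was given a bound. The fits were tested on simulated data.

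Alternatives were upper-quartile scaling, DESeq2 1.42.0, no filter, a minimum count of 50, all 15 libraries in the fit, the replicate number as a block, omission of each library and, chosen after seeing the data, a gene length offset. Depth of 17755711 to 18918686 counts per library sets the precision of low counts, and the reads carry no stated molecular identifiers.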

Additional observations from a re-analysis of the deposited data

Results flagged for a closer look

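The following genes, all named by the rule or in the text, had a difference between IL-4 and IL-13 that itself differed with IL-6 (edgeR, interaction contrast over the 12 treated libraries, adjusted p under 0.05). The value in brackets is the difference of differences on the log2 scale.

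The fitted sign without IL-6, called or not, was the opposite of that with IL-6 for *Il18rap* (-2.46), *Gm5086* (-2.40), *Cd36* (-0.62), *Pparg* (-0.60), *Il4ra* (1.08), *Egr1* (-1.54), *Dusp5* (-1.38), *Dusp6* (0.96), *Ccr3* (-1.45), *Cd163* (2.08), *Mylip* (1.86) and *Pcna* (-0.66). The difference in favor of IL-4 was larger with IL-6 for 3300005D01Rik (3.34), *Il1r1* (1.98), *Habp4* (1.96), *Chil3* (0.59), *Pdcd1lg2* (0.99), *Tfec* (1.37), *Jak2* (1.11), *Cebpd* (1.53), *Pim1* (0.66), *Emp1* (0.57), *Fcgr2b* (0.76), *Fcgrt* (0.67), *Odc1* (0.56), *Cd81* (1.70) and *Csf3r* (0.55). It was in favor of IL-4 and smaller with IL-6 for *Cdh1* (-0.47), *Mgl2* (-0.94), *Egr2* (-0.54) and *Irf4* (-1.46).

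The difference in favor of IL-13 was larger with IL-6 for *Gpr84* (-1.77), *Sncaip* (-1.35), *Nxpe1-ps* (-2.03), *Ptchd1* (-2.29), *Ifitm6* (-1.55), *Neurl3* (-1.61), *Pdgfb* (-2.25), *Tlr13* (-1.28), *Ctsc* (-0.99), *Cd14* (-0.94), *Pid1* (-0.96), *Sema4d* (-1.54), *Spp1* (-0.69), *Smpd3* (-2.42), *Ptpn6* (-0.45), *Il10ra* (-0.61), *Bcl6* (-0.65), *Fos* (-0.44), *Ccr2* (-1.55), *Irf8* (-0.38), *Clec12a* (-1.83), *Cd93* (-0.74), *Msr1* (-0.61), *Axl* (-1.08), *Cyp51* (-1.10), *Hsd17b7* (-0.65), *Fdft1* (-0.999), *Insig1* (-0.67), *Scd1* (-1.88), *Myo10* (-0.84), *Mcm5* (-0.50), *Nfkbie* (-0.60) and *Oasl2* (-1.09). Too few counts for a test without IL-6 were found for *Vegfd* (8.38), *Lrrd1* (3.42), *Dusp14* (4.66) and *Fcrlb* (4.09), and fitted values of such genes depend on the prior count and are no bound. Too few counts for a test with IL-6 were found for *Clec4b1* (-3.03) and *Prr33* (-2.50).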

How the results depend on the processing

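The number of genes called depended on the samples in the fit, while the numbers beyond a log2 fold change of 1 moved less. Of 1326 higher genes in the 6 libraries, the fit with all 15 libraries gave 2207, and omission of 1 library gave 708 to 1920. For lower genes omission of 1 library gave 953 to 1927. Beyond a log2 fold change of 1, omission of 1 library gave 244 to 289 higher and 383 to 544 lower genes. For IL-4 against IL-13 without IL-6 it gave 989 to 5340 called genes. Among the gene lists it gave 13 to 29 lower interferon-stimulated genes, 14 to 25 of G1/S, 6 to 19 of mitosis, 8 to 14 under NF-κB, and 7 to 17 higher ATF4 and serine genes. No direction of a call changed in the 13 alternatives run, and of the 142 called genes that are named or chosen by rule, 135 were called in each alternative that tested them. The cause of these shifts was not tested.

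The same replicate numbers were used in both groups, and whether they mark a shared batch is not given. Deviations of equally numbered libraries correlated at -0.04, -0.21 and -0.03. Those of unequally numbered libraries lay between -0.18 and 0.20, so these values cannot decide whether the samples are paired. With the replicate number as a block, 768 genes were called higher and 1116 lower, and 8 mitosis genes were lower. Libraries of this depth leave genes with few counts without a test or with a bound only.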

Other observations

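Among further lists, called shares stood near those over all tested genes (10.5% higher and 12.5% lower) or moved with single libraries. Of 30 tested genes of glycolysis and hypoxia, 5 were lower in IL-4/IL-6 and 0 higher in edgeR and in DESeq2 (7 and 2 at an unadjusted p under 0.05), and 13 were lower and 1 higher without IL-4/IL-6 replicate 2. Of 19 genes of the NRF2 and glutathione response, 0 were higher and 4 lower in edgeR and in DESeq2 (1 and 7 at an unadjusted p under 0.05), and the lower number was 7 without IL-4/IL-6 replicate 2, 1 without IL-13/IL-6 replicate 1 or 2, and 0 without IL-4/IL-6 replicate 1 or IL-13/IL-6 replicate 3. Of 25 chaperones of the endoplasmic reticulum and heat shock response, 5 were higher and 1 lower, and without IL-4/IL-6 replicate 2 these numbers were 7 and 8. They were 4 and 0 without IL-13/IL-6 replicate 1, 3 and 0 without replicate 2 or 3 of that group, and 5 and 0 without IL-4/IL-6 replicate 1. Of 25 genes of fatty acid oxidation and PPAR lipid metabolism, 2 were higher and 5 lower, against 4 and 4 without IL-4/IL-6 replicate 3 and 2 and 1 without IL-4/IL-6 replicate 1. These numbers were 1 and 1 without any 1 of the IL-13/IL-6 replicates and with the replicate number as a block.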
